A study of Oryza sativa Japonica Group with 2 samples.

Results

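Peaks of the transcription factor subunit NF-YC11 on the arms of rice chromosomes 4, 2 and 6 were examined, with the arms compared in how densely they carry peaks and in how tall and how wide those peaks are. A region is a peak interval of the authors' list, and summits that share an interval were merged into 1 region. The members are the regions whose summit lies more than 3 Mb from the centromere, taken at 9.7 Mb on chromosome 4, 13.6 Mb on chromosome 2 and 15.3 Mb on chromosome 6. This gave 972 regions with 1022 summits, of 4193 regions with 4445 summits in the whole list. A further 150 regions of these chromosomes lie within 3 Mb of a centromere and were left out. The centromere positions are assumed values and were not measured in these data, and no source used here names the genome build of the coordinates.

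The series holds 1 ChIP library and 1 input library (Oryza sativa Japonica Group), so each group is a single library without a replicate. Chromatin for the ChIP library came from endosperm of NF-YC11-FLAG rice at 7 days after pollination and was precipitated with an anti-FLAG antibody. The input library is from endosperm of the same stage, without antibody, and serves as the local background. The labels do not say which promoter drives the tagged protein or how many plants were pooled. No untagged endosperm was analysed here, so a peak stands for enrichment over input and not for a difference from untagged tissue.

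NF-Y is a trimer of NF-YA, NF-YB and NF-YC. The NF-YB and NF-YC subunits pair through histone-fold domains, and NF-YA joins the pair and reads the CCAAT box, a sequence common in promoters. Endosperm is the tissue of the cereal grain that fills with starch and storage protein. Rice chromosomes carry gene-rich euchromatin towards the ends of most arms and repeat-rich heterochromatin around the centromeres. The short arm of chromosome 4 is known for being largely heterochromatic and poor in genes. Chromosome 2 shares ancient duplicated blocks with chromosomes 4 and 6, left by a whole-genome duplication in the grass lineage. Neither heterochromatin nor gene content was measured in these files, and the duplicated blocks were not analysed here.

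Peaks were sparse on the short arm of chromosome 4. It carried 38 regions on 6.7 Mb, a density of 5.67 regions per Mb (exact 95% Poisson interval 4.01 to 7.78), against 257 regions on 22.8 Mb of its long arm, or 11.3 per Mb (9.94 to 12.7). The density ratio, short over long arm, was 0.503 (exact 95% interval 0.348 to 0.709, from the binomial split of the counts). These intervals cover counting error only and treat regions as independent. With 1 library per group there is no test across samples, and regions are not replicates of a condition. Lengths run to the last summit of the chromosome and include any gaps of the assembly and any sequence to which reads cannot be mapped, whose part in the difference was not tested.

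Chromosomes 2 and 6 showed no difference between arms beyond counting error. On chromosome 2 the short arm carried 138 regions, 13.0 per Mb (10.9 to 15.4), and the long arm carried 232, or 12.0 per Mb (10.5 to 13.7). Their ratio was 1.08 (0.870 to 1.34). Chromosome 6 had 155 regions on its short arm, 12.6 per Mb (10.7 to 14.7), and 152 on its long arm, 11.8 per Mb (10.0 to 13.9), a ratio of 1.07 (0.847 to 1.34). Both intervals include 1, and they leave room for a denser arm on either side, with ratios from 0.870 to 1.34 on chromosome 2 and from 0.847 to 1.34 on chromosome 6. Set against the short arms of chromosomes 2 and 6, that of chromosome 4 stood at 0.436 times (0.296 to 0.628) and 0.450 times (0.307 to 0.645) their density.

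**Figure D1:**
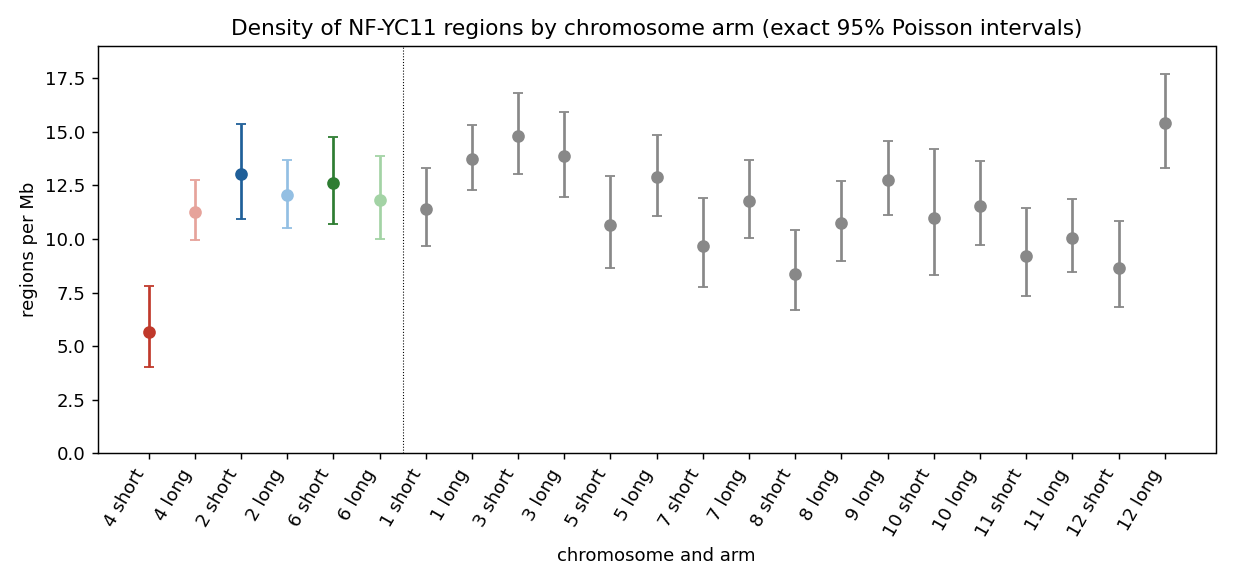
Regions per Mb (vertical axis) on each chromosome arm (horizontal axis), with exact 95% Poisson intervals as bars; the 6 arms of chromosomes 4, 2 and 6 are coloured and stand left of the dotted line, and the 17 arms of the other chromosomes are grey. The short arm of chromosome 4 lies lowest at 5.67 regions per Mb.

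The 6 arms together carried 11.5 regions per Mb (10.8 to 12.2), against 12.0 per Mb (11.5 to 12.4) for 2581 regions on the arms of the other 9 chromosomes, cut at the same distance from their centromeres. The ratio of these densities was 0.962 (0.893 to 1.04). Without the short arm of chromosome 4 it was 1.00 (0.930 to 1.08). Among all 23 arms, the short arm of chromosome 4 had the lowest density, followed by the short arm of chromosome 8 at 8.38 per Mb. The interval of the ratio between these neighbours in the order, 0.676 (0.448 to 1.005), includes 1. Of the other 9 chromosomes, 8 have a short arm beyond the 3 Mb limit, and chromosome 9 has none. Against these 8 short arms as a whole, which carried 887 regions at 10.9 per Mb, the ratio was 0.522 (0.367 to 0.722). On 7 of these 8 chromosomes the short arm was less dense than the long arm, with chromosome 3 as the exception. Pooled over the 8, the density ratio of short over long arms was 0.863 (0.794 to 0.939). A sparser short arm was thus not particular to chromosome 4, though its ratio of 0.503 (0.348 to 0.709) lay below this pooled one.

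Density varied along the arms of chromosome 4. The short arm spans distances of 3 to 9.7 Mb from the centromere, and the long arm carried 39 regions over the same distances, or 5.82 per Mb. At matched distance the ratio, short over long, was 0.974 (0.607 to 1.56). No difference was thus detectable at matched distance, and the interval leaves room for ratios from 0.607 to 1.56. The remaining 16.1 Mb of the long arm carried 218 regions, 13.5 per Mb. The inner stretch stood at 0.430 times the density of that outer stretch (0.298 to 0.607). When the short arm was set against the outermost 6.7 Mb of the long arm, with 95 regions at 14.2 per Mb, the ratio was 0.400 (0.267 to 0.588). These matched comparisons were added after the values were seen.

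Chromosomes 2 and 6 kept nearly even arms under the same matching. At equal distances from the centromere the ratio, short over long, was 1.17 (0.908 to 1.51) on chromosome 2 and 1.08 (0.852 to 1.36) on chromosome 6. On chromosome 6 the matching kept 144 of the 152 long-arm regions, so its ratio could hardly change. The inner part of the long arm of chromosome 2 stood at 0.848 times the density of its outer part (0.650 to 1.11). Within 3 Mb of the assumed centromeres the density was 7.33 per Mb (5.33 to 9.84) on chromosome 4, 9.17 (6.91 to 11.9) on chromosome 2 and 8.50 (6.33 to 11.2) on chromosome 6. The short arms of chromosomes 2 and 6 were denser than these stretches, at 1.42 times (1.03 to 1.98) and 1.48 times (1.07 to 2.08). That of chromosome 4 was not, at 0.773 times (0.488 to 1.22).

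**Figure D2:**
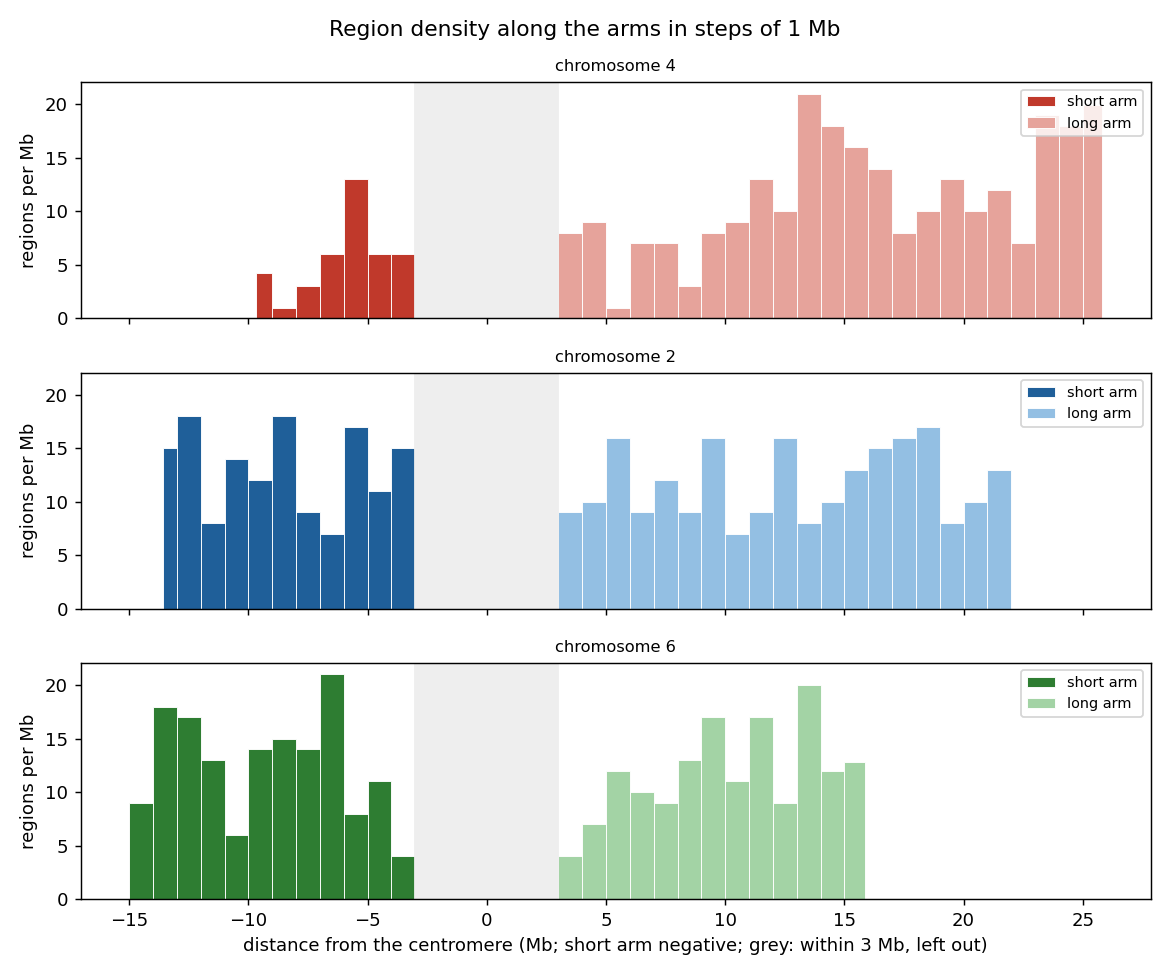
Regions per Mb (vertical axis) in steps of 1 Mb outward from 3 Mb on either side of the centromere (horizontal axis, distance in Mb, short arm negative), with chromosomes 4, 2 and 6 from top to bottom; steps shorter than 0.5 Mb at the ends are not drawn. Bars are low on the whole short arm of chromosome 4 but for 1 taller bar in its middle, and low on the first part of its long arm.

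The sparsest stretch of the short arm of chromosome 4 lay at its outer end. Its outermost 3 Mb held 8 regions, 2.67 per Mb (1.15 to 5.25), against 30 regions or 8.11 per Mb on the rest of the arm, a ratio of 0.329 (0.130 to 0.734). The outermost 3 Mb held 55 regions on the long arm of chromosome 4, 43 and 38 on the short and long arms of chromosome 2, and 44 on each arm of chromosome 6. Over all 23 arms, 8 was the lowest count and 55 the highest, and the second lowest was 17 on the long arm of chromosome 11. The 2 arms of chromosome 4 therefore stood at opposite ends of this order. Without regions of high input background, defined further on, the counts were 7 and 48. These 2 outer ends lie at unlike distances from the centromere, since the arms measure 6.7 and 22.8 Mb. In the 1 Mb steps that start 7 and 8 Mb from the centromere, the short arm of chromosome 4 held 3 and 1 regions. Its long arm held 7 and 3 in the same steps. Near the centromere the order was different. The stretch from 3 to 6 Mb held 25 regions on the short arm of chromosome 4, 8.33 per Mb (5.39 to 12.3), and 18 on its long arm, with an interval of 3.56 to 9.48 per Mb, which overlaps the first. It held 43 and 35 on the short and long arms of chromosome 2, and 23 on each arm of chromosome 6. On the other chromosomes it ran from 17 on the short arm of chromosome 11 to 48 on the long arm of chromosome 3. Both arms of chromosome 4 lay within this range.

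**Figure D3:**
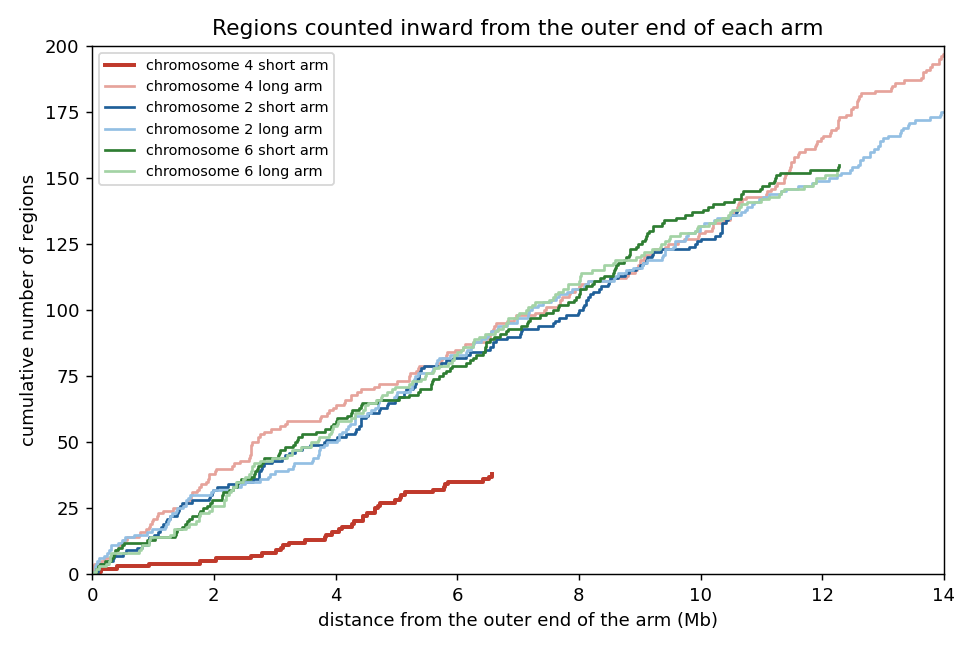
Cumulative number of regions (vertical axis) counted inward from the outer end of each arm (horizontal axis, Mb), 1 line per arm. Over the first 3 Mb the lines of 5 arms gain 38 to 55 regions, most on the long arm of chromosome 4. The short arm of chromosome 4 gains 8 regions there and ends at 38.

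In windows of 1 Mb, counts on the short arm of chromosome 4 ran from its outer end as 4, 1, 3, 8, 12 and 7 regions. The window from 4 to 5 Mb, with 12, was the only 1 of these 6 at or above the mean of 11.5 over all 80 whole windows of the arms. On the long arm of chromosome 4 the 22 windows ran from 0 to 21 regions with a median of 10.5. Windows of the short arm of chromosome 2 held 8 to 18 regions, of its long arm 6 to 17, of the short arm of chromosome 6 7 to 19 and of its long arm 8 to 18. A count of 4 or fewer was found in 5 windows, and all 5 were on chromosome 4, 3 on its short arm and 2 on its long arm. The variance of the window counts was 2.70 times their mean on the short arm of chromosome 4 and 2.41 times on its long arm. It was 1.17 and 1.06 times on the arms of chromosome 2 and 0.843 and 0.713 times on those of chromosome 6, each with the short arm first. Counts on chromosome 4 thus scattered more than independent placement at an even density along the arm gives, though the value for its short arm rests on 6 windows. Whether this reflects the uneven density along its arms or clumping of regions was not tested, and the intervals on its densities can be too narrow.

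On chromosome 4 the window from 23 to 24 Mb held 21 regions and the next one held 20, and on chromosome 6 the window from 8 to 9 Mb held 19; no other window of the arms held as many. The only empty window was 15 to 16 Mb of chromosome 4, inside a stretch without a region of 1208 kb, from 14797103 to 16004820. On the short arm of chromosome 4 the longest such stretch measured 826 kb, from 938515 to 1764481. The longest on the arms of chromosomes 2 and 6 measured 459 kb (chromosome 2, 9345108 to 9804018), 467 kb (chromosome 2, 19729847 to 20196504), 493 kb (chromosome 6, 11301985 to 11795114) and 467 kb (chromosome 6, 30381118 to 30848482). Neighbouring regions of the short arm of chromosome 4 lay a median of 111 kb apart (95% interval of the median 67.4 to 175). On the other 5 arms this median ran from 48.3 kb on the short arm of chromosome 2 to 53.7 kb on its long arm, with 50.3 kb (41.3 to 62.7) on the long arm of chromosome 4. Neighbours within 5 kb made up 3 of 37 gaps (8.11%) on the short arm of chromosome 4 and 18 of 256 (7.03%) on its long arm.

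Where peaks were called, their height differed little between arms. Peak height is the pileup, the number of ChIP fragments over the highest summit of a region, as the authors' list gives it. The median was 23 fragments on the short arm of chromosome 4 (95% interval of the median 21 to 26, from order statistics over regions) and 24 on its long arm (23 to 26). It was 24 (22 to 25) on the short and 23 (22 to 25) on the long arm of chromosome 2, and 25 (22 to 27) on the short and 24 (23 to 26) on the long arm of chromosome 6. The lowest pileup was 14 on every arm. All 6 intervals overlap, and the 2581 regions on the arms of the other 9 chromosomes had a median of 24.

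Width and enrichment were also alike. Median width was 195 bp (176 to 213) on the short arm of chromosome 4 and 193 bp (183 to 205) on its long arm. The other arms ran from 183 bp (176 to 194) on the long arm of chromosome 2 to 199.5 bp (182 to 218) on its short arm, with 198 and 195 bp on the short and long arms of chromosome 6. The narrowest width that the list holds, 149 bp, was found at 3 of 38 regions on the short arm of chromosome 4 and 16 of 257 on its long arm. Fold enrichment is the authors' ratio of ChIP signal to local input background, each with 1 added. Its median was 2.69 (2.50 to 3.22) on the short arm of chromosome 4 and 2.70 (2.61 to 2.79) on its long arm, and between 2.67 and 2.76 on the other 4 arms. The peaks of the inner long arm of chromosome 4, also sparse, had a median pileup of 24, a median width of 192 bp and a median fold of 2.50 (2.43 to 2.96). Every peak had to pass the same calling threshold, which narrows the range in which medians can differ.

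**Figure D4:**
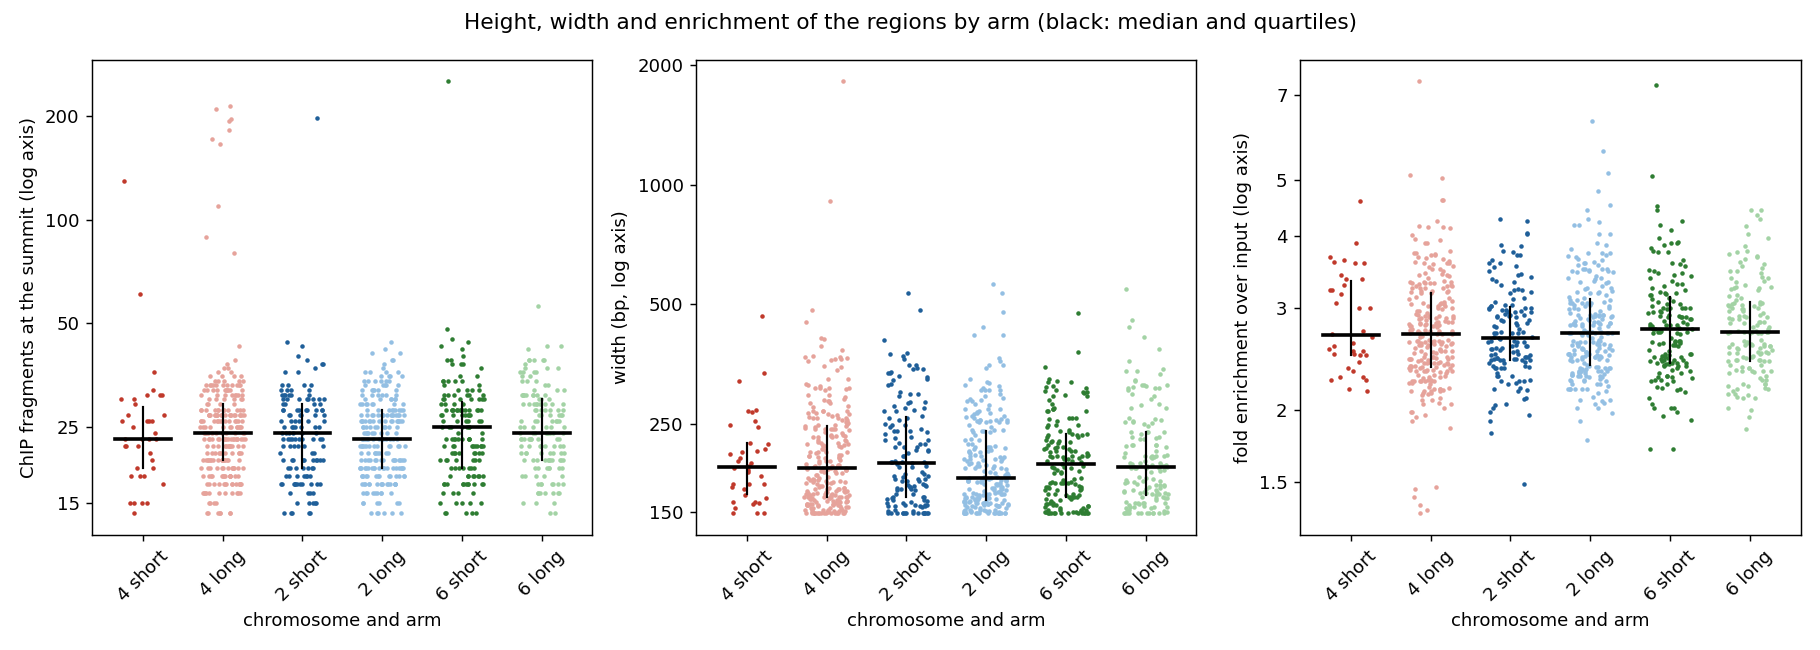
ChIP fragments at the highest summit, width in bp and fold enrichment over input of each region (log axes), by chromosome arm; points are regions and black lines give the median and quartiles. The medians of pileup lie between 23 and 25 fragments on all 6 arms.

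The input background beneath the called peaks had the same median on both arms of chromosome 4. Recovered from the pileup and the fold, it had a median of 7.45 ChIP-scaled fragments on the short arm (6.70 to 8.43) and 7.45 on the long arm (7.10 to 8.19). Elsewhere it was 7.66 and 7.44 on the short and long arms of chromosome 2 and 7.45 and 8.09 on those of chromosome 6. The lowest background in the list, 4.85, was found at 3 of the 38 regions of the short arm of chromosome 4 (7.89%, exact 95% interval 1.66 to 21.4) and at 10 of 257 on its long arm (3.89%, 1.88 to 7.04). It recurred at 34 of the 972 members and at 101 of the 2581 arm regions of the other chromosomes. Such a shared value can be a floor and not a local input, which was not tested, and folds over it carry the same limit. Background is known only beneath called peaks, so input coverage of the empty stretches was not tested.

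Among regions that passed a strict limit on q, or had a fold of at least 3, the density ratio of the arms of chromosome 4 was nearer to 1. A strict limit was set on q, the authors' adjusted p-value of a summit against input. With a −log10 q of 5 or more, 147 of the 972 regions remained (15.1%), against 14.9% of the whole list. The short arm of chromosome 4 held 10 of them (26.3% of its regions, exact 95% interval 13.4 to 43.1) and its long arm 32 (12.5%, 8.68 to 17.1). Per Mb these are 1.49 and 1.40, a ratio of 1.06 (0.466 to 2.22). For regions below that limit the ratio was 0.424 (0.275 to 0.629), from 28 and 225 regions. The 2 intervals overlap, the difference between them was not tested, and 10 regions cannot show a deficit of the size found over all regions. At a fold of at least 3 the short arm of chromosome 4 held 17 regions (44.7%, 28.6 to 61.7) and its long arm 79 (30.7%, 25.2 to 36.8), against 30.5% of the whole list. Their density ratio was 0.732 (0.406 to 1.25), and for the 21 and 178 regions of lower fold it was 0.401 (0.243 to 0.633). A fold of at least 4 did not show this. The short arm of chromosome 4 held 1 such region (2.63%, 0.0666 to 13.8) and its long arm 11 (4.28%, 2.16 to 7.53). The lower share was thus on the short arm there, with overlapping intervals. On chromosomes 2 and 6 the ratio at a −log10 q of at least 5 was 0.980 (0.548 to 1.71) and 1.19 (0.637 to 2.26).

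Most strong regions of the short arm of chromosome 4 lay in its 1 dense window. Of the 10 with a −log10 q of at least 5, 6 lay between 4 and 5 Mb. The strongest by fold covered 4698860 to 4699127, with 31 ChIP fragments over an input of 5.96 and thus a fold of 4.60 (3.17 to 6.47, exact Poisson interval on the pileup with the background held fixed). The region at 5062234 to 5062382 followed with 26 fragments over 5.96, a fold of 3.88 (2.59 to 5.62). The third, at 4446027 to 4446250, had 30 fragments over 7.45 and a fold of 3.67 (2.51 to 5.19). Their intervals overlap, so their order cannot be told from counting error, and all 3 were picked as the highest of the arm.

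In the outermost 3 Mb of that arm, pileups of the 8 regions ran from 15 to 130 with a median of 20, and folds from 2.25 to 3.36 with a median of 2.53. The highest, 130 fragments (109 to 154), was at 1130 to 1595, which is also the widest region of the arm at 466 bp. It held 2 summits, with 130 fragments over a background of 54.4 and 69 over 44.7, at folds of 2.37 and 1.53. Leaving it out, pileups there reached 27 fragments. The other 30 regions of the arm ran from 14 to 61 fragments with a median of 24.5, and their folds from 2.15 to 4.60 with a median of 2.87. The 61 fragments (46.7 to 78.4), at 3504310 to 3504500 over a background of 17.9, made the tallest region of the arm outside high background, at a fold of 3.29 (2.53 to 4.21).

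Folds of at least 4 were found at 41 of the 972 regions (4.22%, exact 95% interval 3.04 to 5.68), against 3.63% of the whole list. They were 1 on the short and 11 on the long arm of chromosome 4, 4 and 12 on those of chromosome 2, and 7 and 6 on those of chromosome 6. The highest fold of all members was on the long arm of chromosome 4, at 32336396 to 32337305. The 2 summits of this region had 89 fragments (71.5 to 110) over 11.2, a fold of 7.40 (5.96 to 9.08), and 66 over 10.4, a fold of 5.86. Its interval overlaps that of the highest fold on chromosome 6, 7.30 (5.42 to 9.63), so their order is not resolved. Next on the long arm of chromosome 4 came 24415310 to 24415487, with 30 fragments over 5.08 and a fold of 5.10 (3.49 to 7.21). The third, 28870413 to 28872234, was the widest region of all members at 1822 bp. It held 6 summits, with 31, 26, 21, 22, 24 and 27 fragments in order of position, and their folds ran from 2.72 to 5.03. This is a broad and even shape with no tall summit, at backgrounds from 5.34 to 7.45.

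On the long arm of chromosome 2, the strongest region covered 28720747 to 28721050, with 36 fragments over the lowest background of the list, 4.85, a fold of 6.32 (4.48 to 8.69). A weaker neighbour at 28719936 to 28720085 had 24 fragments over the same background and a fold of 4.27. The region at 30191759 to 30192292 had 38 fragments over 5.96 and a fold of 5.61 (4.01 to 7.64), and 35402787 to 35403137 had 32 over 5.44 and a fold of 5.13 (3.56 to 7.17). The short arm of chromosome 2 had no region above 4.27-fold. Its strongest were 3808058 to 3808230, with 24 fragments over 4.85 at 4.27-fold (2.80 to 6.27), 8146665 to 8146912, with 24 over 4.88 at 4.25-fold (2.78 to 6.24), and 1412191 to 1412488, with 25 over 5.44 at 4.04-fold (2.67 to 5.89). These 3 intervals overlap those of the long arm, so the order of the arms in their strongest peaks is not resolved.

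On chromosome 6 the highest fold was found on the short arm. The region at 9359477 to 9359733 had 48 fragments (35.4 to 63.6) over 5.71, a fold of 7.30 (5.42 to 9.63), and was also the tallest of its arm outside high background. It was followed by 11301819 to 11301984, with 30 fragments over 5.11 at 5.07-fold (3.47 to 7.17), and 527358 to 527592, with 27 over 5.21 at 4.51-fold (3.03 to 6.48). On the long arm the strongest 3 were close together in fold. The region at 29871490 to 29871696 had 30 fragments over 5.99 (4.43-fold), 25671646 to 25671794 had 27 over 5.33 (4.43-fold), and 26319393 to 26319558 had 26 over 5.21 (4.34-fold). The interval of the first, 3.04 to 6.27, overlaps that of the strongest short-arm region, so the order of these arms is not resolved either. The tallest of that arm, 23587884 to 23588196, had 56 fragments over 29.8 at 1 of its 2 summits, a fold of 1.85.

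Wide and multi-summit regions were few. Several summits were found in 45 of the 972 regions (4.63%, 3.40 to 6.15), against 5.32% of the whole list, and in 2 on the short and 12 on the long arm of chromosome 4. The widest regions of the other 4 arms measured 533 bp on the short arm of chromosome 2 (96256 to 96788), 562 bp on its long arm (35647283 to 35647844), 476 bp on the short arm of chromosome 6 (6703287 to 6703762) and 547 bp on its long arm (21818269 to 21818815). These 4 had 22 to 35 fragments at the highest summit and folds up to 3.31. The 9 regions with several summits on the short arm of chromosome 2 and the 10 on the long arm of chromosome 6 gave the highest shares, at 6.52% (3.03 to 12.0) and 6.58% (3.20 to 11.8). Across the 961 members without high background, Spearman's rho was −0.01 between width and pileup and 0.75 between background and pileup, a description over regions of the same libraries. The value of 0.75 is partly built in, since a peak over a higher background needs a higher pileup to be called.

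A background above 40 fragments, called high background here, was found at 11 of the 972 regions (1.13%, 0.566 to 2.02), against 4.03% of the whole list and 110 of the 2581 arm regions of the other 9 chromosomes (4.26%, 3.52 to 5.11). Of those 110, 74 lay on the long arm of chromosome 12, and without that arm the share was 36 of 2387 (1.51%, 1.06 to 2.08), an interval that overlaps that of the members. On the arms described here it was found at 1 region on the short arm of chromosome 4 and 8 on its long arm, and at 1 on the short arm of each of chromosomes 2 and 6. Their long arms had 0 among 232 and 152 regions, which allows shares of up to 1.29% and 1.97% (3 counts). Those on the long arm of chromosome 4 had pileups of 110 to 215 fragments and folds of 1.33 to 2.57. Most of these 8 lay close together, between 32873434 and 32929214, and were not spread over the arm. The tallest were 215 fragments over 160 at 32884534 to 32884741 on chromosome 4, 198 over 133 at 2392678 to 2392905 on chromosome 2 and 253 over 147 at 56203 to 56502 on chromosome 6. All 3 had low folds, at 1.34, 1.49 and 1.71. Leaving out such regions changed the density ratio of the arms of chromosome 4 to 0.506 (0.348 to 0.716).

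**Figure D5:**
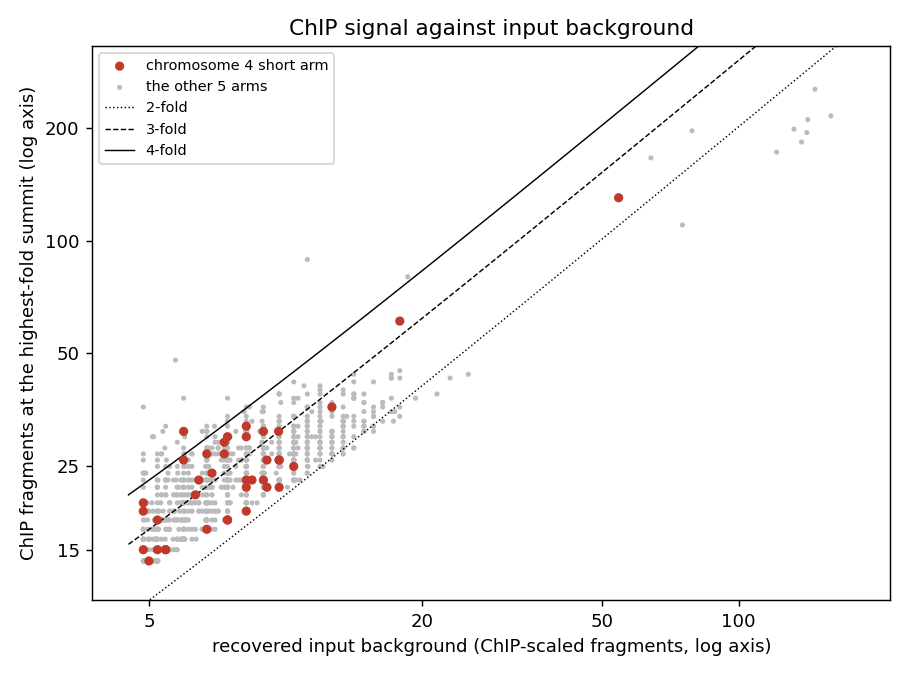
ChIP fragments at the highest-fold summit of each region (vertical axis) against the recovered input background in ChIP-scaled fragments (horizontal axis), both on log axes, with lines at 2, 3 and 4-fold enrichment. The 38 regions of the short arm of chromosome 4 (red) lie among the regions of the other 5 arms (grey), with 1 at a fold above 4.

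Regions next to the 3 Mb limit were ordinary in size. On the short-arm side of chromosome 4 the nearest member, at 6567833 to 6567997, had 36 fragments over 12.7 and a fold of 2.71, and the nearest region left out, at 6881620 to 6881881, had 19 over 8.19 and a fold of 2.18. On its long-arm side they had 19 fragments at 2.50-fold, at 12980309 to 12980461, and 20 at 2.73-fold, at 12413859 to 12414022. Over the limits of chromosomes 2 and 6, the nearest members had 20 to 38 fragments and folds of 2.30 to 3.41, and the nearest regions left out had 19 to 26 fragments and folds of 2.09 to 3.27.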

How the data were processed

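ChIP-seq was carried out on 1 NF-YC11-FLAG ChIP library and 1 input library; per the labels' protocols, endosperm was crosslinked with formaldehyde and chromatin sheared to 200 to 500 bp. Per the submitters' processing notes, which give no versions, reads were handled with BWA and MACS2; no source used here states the genome build, mapping filters or duplicate handling. Deposited by the authors were 1 peak table and 1 summit list. Per the file headers, the deposited pileup is a signal (whole ChIP fragments covering a summit) and the deposited fold enrichment is a ratio of ChIP to local input. The deposited −log10 p-value and −log10 q-value were identified by order and values, their headers being damaged. All 4445 summits matched the summit list, with −log10 q differing by 0. The lowest −log10 q is 1.31, a q of 0.0491. Total reads per library, and so the depth, are unknown.

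Summits sharing an interval were merged. A region takes its highest pileup and −log10 q, and the fold and background of its highest-fold summit. Background was recovered as (pileup + 1) / fold − 1; with it, a Poisson tail matched each deposited −log10 p within 0.000322. Short arms run from coordinate 1 to 3 Mb before the centromere, long arms from 3 Mb after it to the chromosome's last summit. Intervals are exact 95% Poisson, binomial (Clopper-Pearson) or order-statistic intervals, cover counting error or spread over regions only, and carry no p-value. Named regions are, per arm, the 3 of highest fold, the tallest and the widest, the longest empty stretch, the regions at each limit, the 3 densest windows and every empty window; the tallest without high background was added. The interval of a density ratio was tested on simulated data with independently placed regions, which does not cover clumping. The members and comparisons were chosen with earlier results of these data known. Genes, promoters and sequence motifs were not analysed here. Python 3.11.15, pandas 2.3.3, NumPy 2.4.6, SciPy 1.17.1 and matplotlib 3.10.9 were used.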

Additional observations from a re-analysis of the deposited data

How the results depend on the processing

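The density ratio of the short over the long arm of chromosome 4, 0.503, became 1.06 at the strict limit on q (−log10 q of 5 or more) and 1.02 when high-background regions were also left out, a setting chosen after seeing the data. Few regions remain there, and both intervals reach from under 0.47 to above 2.2. It became 0.974 when the long arm was limited to the distances from the centromere that the short arm covers, also chosen after seeing the data. Under limits of 2 and 4 Mb, a q of at most 0.01, no high-background regions, summits as units, regions joined over gaps of up to 5 kb, and the outermost equal length, it stayed between 0.400 and 0.539. The ratios of chromosomes 2 and 6 stayed within their intervals under all alternatives run. Stricter limits on q leave fewer and stronger regions by construction. At the strict limit the 972 members became 147. For the short arm of chromosome 4, density then fell to 1.49 per Mb, and to 3.88 at a q of at most 0.01; median pileup was 30.5 fragments and median fold 3.60 at the stricter limit. Its median width stayed between 190 and 198 bp. Of 120 further values on the other 5 arms, 30 left their interval, 17 at the strict limit and 13 at a q of at most 0.01. An end of the long arm at a reference's chromosome length was not run, because no genome of a known matching build was given. No paired analysis was possible because each group is a single library; for that reason leaving out a replicate was not possible either. At this depth the list starts at pileups of 14 fragments on these arms.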
